A study of Homo sapiens with 9 samples.

Results

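PGK1 and GAPDH catalyze consecutive steps of glycolysis, and their array signals were described here on arrays labeled as 3 human ovarian cell lines. Both genes were chosen by measured values of these same arrays, so their differences between lines are a description and carry no test. They were 2 of the 20 genes with a named probe, and their gene probes were 2 of 60924 probes in all. Of a list of 27 glycolysis genes, PGK1 and GAPDH had a named probe, and the other 25, including hexokinases, aldolases, enolases and lactate dehydrogenases, could not be read by name.

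Glycolysis splits glucose into pyruvate and yields ATP in the cytosol. GAPDH, glyceraldehyde-phosphate dehydrogenase, oxidizes its sugar phosphate substrate with NAD and inorganic phosphate to bisphosphoglycerate. PGK1, phosphoglycerate kinase, then moves a phosphate from bisphosphoglycerate to ADP, which is the first step of the pathway's payoff phase to form ATP. Both are housekeeping enzymes of nearly every cell, GAPDH is a common reference gene, and PGK1 is also a known target of the hypoxia-inducible factor.

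The study presents IOSE80 as a cell line of normal ovary and SKOV3 as one of ovarian adenocarcinoma. The SKOV3-DDP cells are described by the study as a variant of SKOV3 that resists the platinum drug cisplatin. Total RNA was amplified into Cy3-labeled cRNA and hybridized to Arraystar human lncRNA arrays, which also carry mRNA probes, with 3 arrays per line and 9 in total. The sample records name no treatment for any line, and do not say whether the 3 arrays of a line came from separate cultures, so the spread between them may be technical. Each line is a single established line, and its arrays cannot show how such lines vary.

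The SKOV3-DDP arrays stood apart from the others before any gene was considered. The 75th percentile of intensity over all probes was 163 to 192 on the IOSE80 arrays and 159 to 183 on the SKOV3 arrays but 48.2 to 54.3 on the SKOV3-DDP arrays, while arrays of one line correlated at 0.974 to 0.989 over the tested probes. All IOSE80 arrays and SKOV3 replicates 1 and 2 were recorded as scan 1, and SKOV3 replicate 3 and all SKOV3-DDP arrays as scan 2. IOSE80 and SKOV3-DDP therefore shared no scan, and for that pair line and scan cannot be told apart without SKOV3 as a link. None of 14 marker genes listed to check the lines had a named probe, so the labeled identities were not checked that way.

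Some control probes named for mouse or rat were far brighter on the SKOV3-DDP arrays, which carry a human label, than on the others. The mouse-named GAPDH 5′ control averaged a log2 intensity of 15.72 there, against 4.46 on the IOSE80 arrays and 4.89 on the SKOV3 arrays. The rat-named PGK1 3′ control averaged 14.65, against 4.75 and 2.92. The human-named PGK1 3′ control was instead lower there, at 12.86 against 16.21 and 17.35. Other controls did not follow this before scaling between arrays. The rat-named GAPDH 3′ control averaged 4.80 there, against 4.88 and 5.06, and the human-named GAPDH 3′ control 16.56, against 16.43 and 16.67. The mouse- and rat-named PGK1 5′ controls were highest in SKOV3 before scaling. After the scaling described below they averaged highest in SKOV3-DDP, at -1.63 and -1.53, against -2.54 and -2.07 in SKOV3. Whether the RNA on the SKOV3-DDP arrays was wholly human was not tested. SKOV3-DDP is used below as the name of the label, and each of its PGK1 and GAPDH values is a signal at probes named for human transcripts on these arrays.

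Each gene probe had 10 spots on an array, and its level was the mean log2 of the background-corrected intensity. Each gene also had a pair of human-named control probes, read here as lying toward the 3′ and the 5′ end from the 3 or 5 that ends their names, with 10 spots each. Log2 levels were scaled by subtracting each array's 75th percentile over the 15196 probes detected on every array, that is, well above background, and differences were fitted with limma over 28578 tested probes. A probe was called when its fold change was over 2 and its Benjamini-Hochberg adjusted p was under 0.05 in that fit. Both members passed the filter on dim probes and were detected on each of the 9 arrays. A lower level in bulk RNA does not tell fewer expressing cells from less RNA per cell.

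PGK1 was highest in SKOV3 and lowest in SKOV3-DDP. Before scaling, the log2 intensity of its gene probe was 9.22, 9.26 and 9.19 on the IOSE80 arrays. It was 11.39, 11.30 and 11.44 on the SKOV3 arrays. On the SKOV3-DDP arrays it was 4.99, 4.97 and 4.85. The lines did not overlap, and the order of SKOV3, IOSE80 and SKOV3-DDP held on every array. As plain intensities these were 585 to 612 for IOSE80, 2521 to 2779 for SKOV3 and 28.8 to 31.8 for SKOV3-DDP. The low signal in SKOV3-DDP was also the least precise, with an SD among spots of 0.20 to 0.27 (log2) against 0.03 to 0.06 on the other arrays. Even so, 9, 10 and 9 of the 10 PGK1 spots were well above background on the SKOV3-DDP arrays.

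After scaling, the 3 IOSE80 arrays gave PGK1 a mean of -3.05 ± 0.09 (SD), those of SKOV3 -0.83 ± 0.01, and those of SKOV3-DDP -4.78 ± 0.18. PGK1 was thus 2.22 ± 0.13 (SE, log2) higher in SKOV3 than in IOSE80, which is 4.66-fold. It fell by 1.73 ± 0.13 from IOSE80 to SKOV3-DDP, or 3.31-fold, and by 3.95 ± 0.13 from SKOV3 to SKOV3-DDP, or 15.5-fold. These falls were larger with the percentile over all probes, at -2.54 and -4.75, and without scaling, at -4.29 and -6.44. With normexp background correction they were -0.35 and -2.43, and the one from IOSE80 was no longer called. In SKOV3 versus IOSE80, PGK1 was called and GAPDH was not, that is 1 of 2 members, where 33.5% of all tested probes were called. In SKOV3-DDP both members were called against either line, where 82.0% of tested probes were called versus IOSE80 and 81.0% versus SKOV3. Since these comparisons chose the members, nothing is read from those counts.

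GAPDH, the step before PGK1, varied less between the lines before scaling. The log2 intensity of its gene probe before scaling was 17.12, 16.98 and 16.99 in IOSE80. In SKOV3 it was 17.12, 17.14 and 17.36. In SKOV3-DDP it was 16.36, 16.66 and 16.76. The SKOV3-DDP arrays were the lowest, while the highest IOSE80 array and the lowest SKOV3 array both read 17.12. No GAPDH spot was saturated, and the brightest array reached 22.3% of the saturation value.

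**Figure D1:**
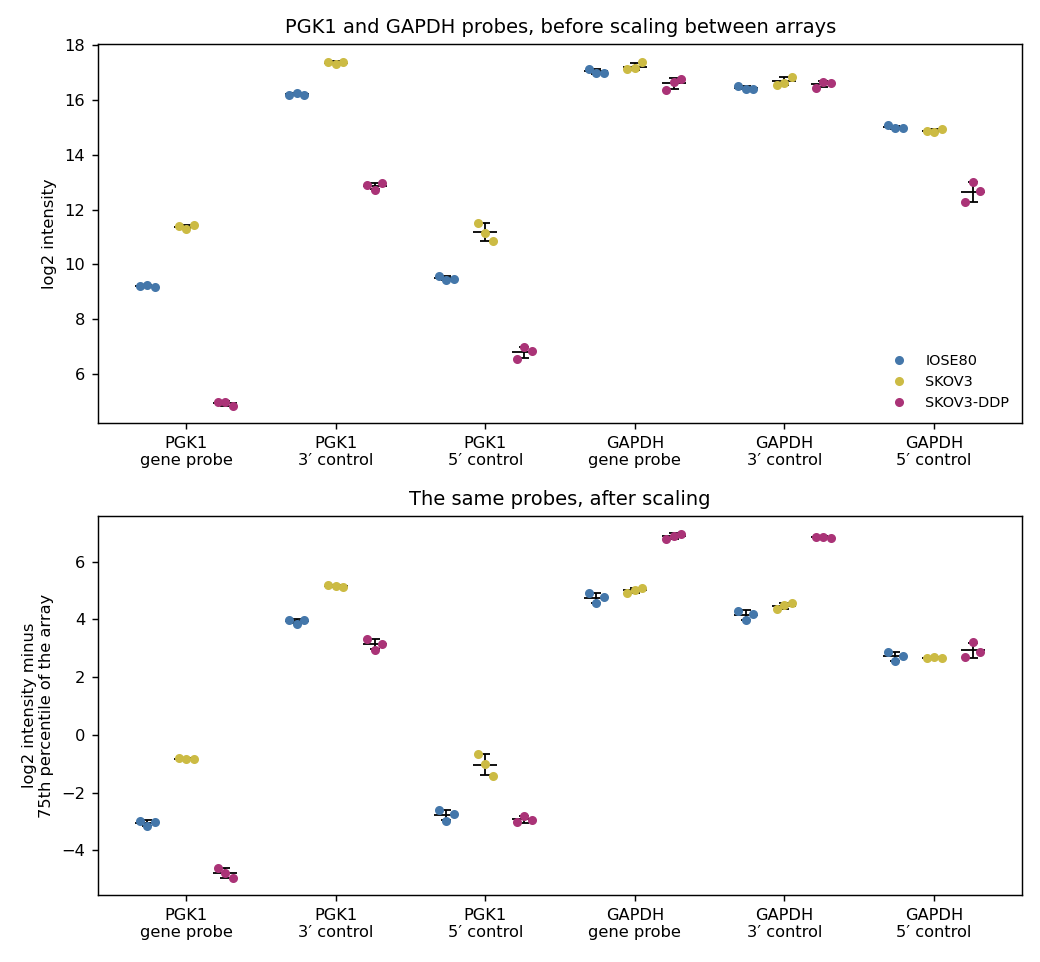
Log2 intensity of the PGK1 and GAPDH gene probes and their human-named 3′ and 5′ control probes before scaling (top) and after subtracting each array's 75th percentile (bottom). Points are arrays, 3 per line, and bars give the mean and SD. All PGK1 probes were highest in SKOV3. The SKOV3-DDP arrays were lowest for PGK1 before scaling, and the GAPDH gene probe was lowest there before scaling and highest after it.

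The direction of GAPDH in SKOV3-DDP depended on how the arrays were brought to one scale. After the scaling used here it was 2.12 ± 0.14 (SE, log2) higher than in IOSE80, but with the percentile over all probes the difference was 1.31, with quantile normalization 0.33, and without scaling -0.43. Against SKOV3 the differences were 1.88 ± 0.14 with the scaling used here, 1.08 with the percentile over all probes, -0.0075 with quantile normalization, and -0.61 without scaling. The median of all tested probes itself shifted by 1.24 versus IOSE80 and 1.27 versus SKOV3 under the scaling used here, so GAPDH lay 0.88 and 0.61 above that median, and PGK1 lay at -2.97 and -5.22 relative to it. After quantile normalization the medians shifted by 0.41 and 0.42, and 78.1% and 76.0% of tested probes were called. GAPDH was then not called in either comparison, and PGK1 was called in both, with differences of -2.53 and -4.67. Of the probes called versus IOSE80, 14923 were higher and 8524 lower with the scaling used here, 11864 and 10442 after quantile normalization, and 3047 and 15272 without scaling. The corresponding splits versus SKOV3 were 15095 and 8043, 11610 and 10113, and 2724 and 15025.

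In SKOV3 versus IOSE80 the choice of scaling mattered little for either gene, since the median of all tested probes moved by 0.08. GAPDH differed by 0.25 ± 0.14 (SE, log2) and was not called under any scaling tried, with 0.18 as its value before scaling and 0.34 after quantile normalization. PGK1 stayed between 2.09 and 2.23 in all 14 alternatives other than leaving out an array, and was called in each. Several of these reused the same scaled values, so that in them only the call could change, not the difference. Among all tested probes, 6.11% had a higher difference than PGK1 in that comparison, and 42.1% a higher one than GAPDH. In SKOV3-DDP versus SKOV3, 7.15% had a lower difference than PGK1 and 39.3% a higher one than GAPDH. PGK1 thus lay toward the upper end in the first comparison and toward the lower end in the other, while GAPDH lay nearer the middle in both. In SKOV3-DDP versus IOSE80, PGK1 was not near an end, since 24.1% of tested probes had a lower difference, and 36.0% had a higher one than GAPDH.

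**Figure D2:**
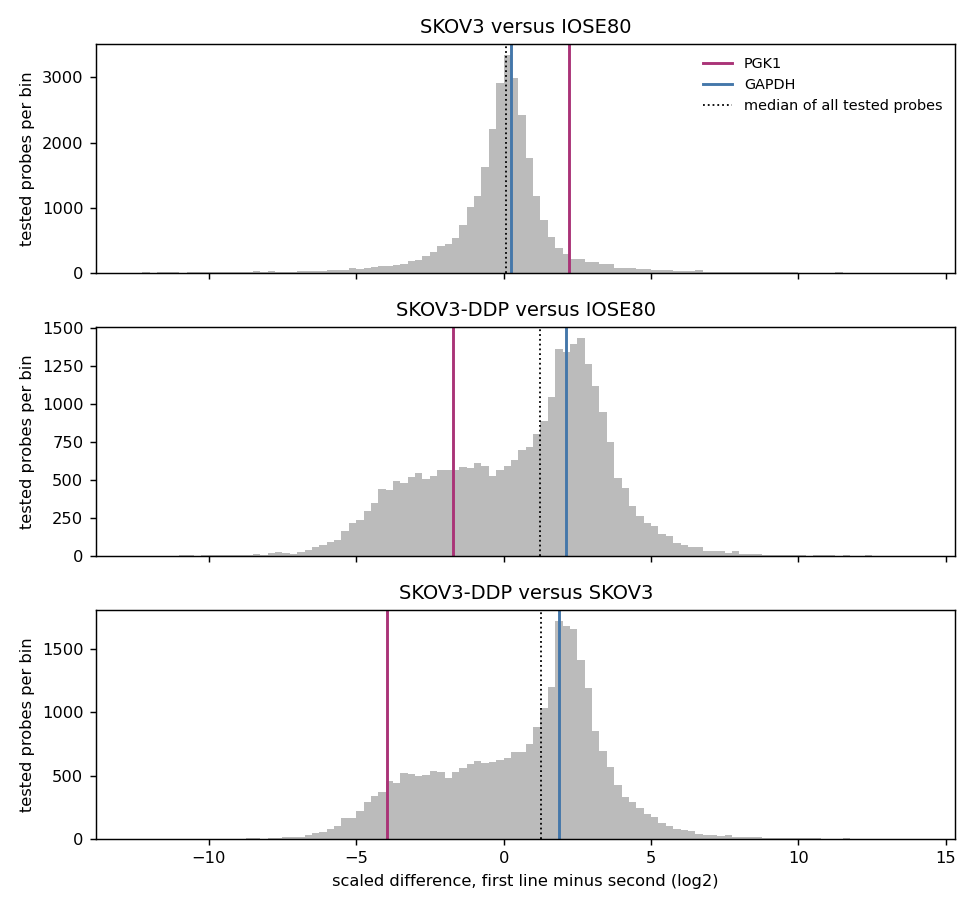
Scaled log2 differences of all 28578 tested probes in 0.25-wide bins, with PGK1, GAPDH and the median of all tested probes as vertical lines, for each comparison. PGK1 lay at 2.22, -1.73 and -3.95. GAPDH lay at 0.25, 2.12 and 1.88, and its sign in SKOV3-DDP turned without scaling.

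**Figure D3:**
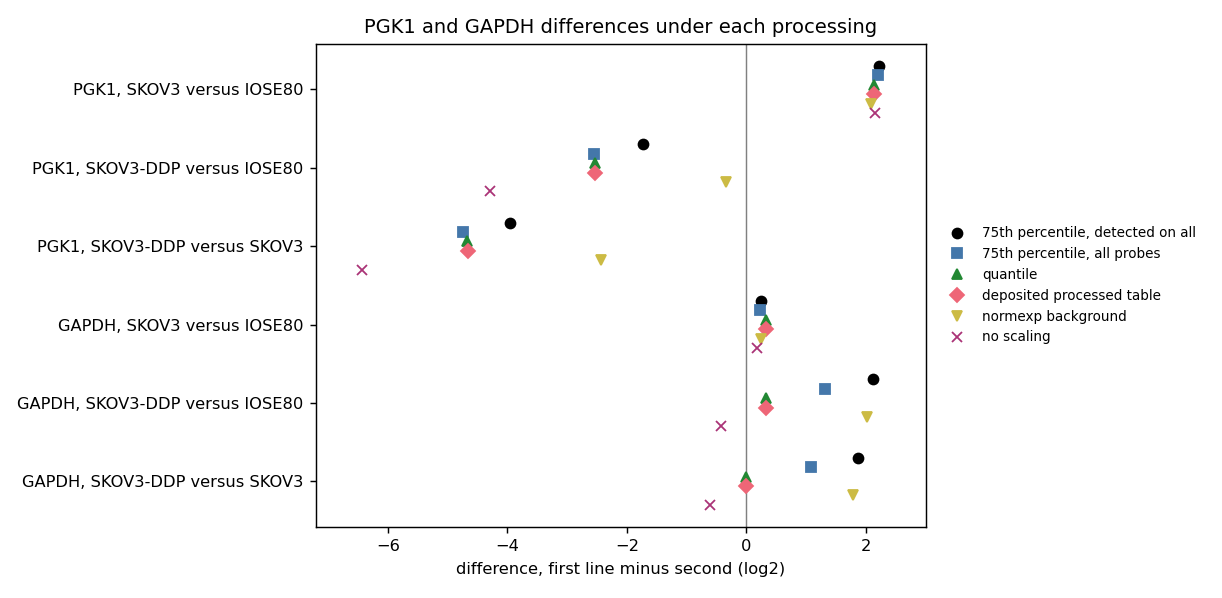
Log2 difference of PGK1 and GAPDH in each comparison under 6 ways of processing the arrays, with one symbol for each. PGK1 kept its sign under all of them. GAPDH in SKOV3-DDP ranged from 2.12 to -0.43 against IOSE80 and from 1.88 to -0.61 against SKOV3.

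A difference between both genes on one array needs no scaling, because an array's overall brightness cancels. PGK1 minus GAPDH, set to 0 at the IOSE80 mean, was 2.07, 1.96 and 1.88 on the SKOV3 arrays. On the SKOV3-DDP arrays it was -3.57, -3.88 and -4.11. The IOSE80 arrays themselves lay between -0.09 and 0.08, so the lines did not overlap. PGK1 therefore changed by 1.97 ± 0.13 more than GAPDH from IOSE80 to SKOV3 (log2, with the SD of the difference), or 3.93-fold. From SKOV3 to SKOV3-DDP its change was -5.83 ± 0.29 relative to GAPDH, or 56.7-fold, and from IOSE80 to SKOV3-DDP it was -3.85 ± 0.29, or 14.4-fold. With normexp background correction, which adds an offset of 50 that exceeds the PGK1 intensity in SKOV3-DDP, the last of these values was -2.37 and the one against SKOV3 was -4.21.

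The control probes gave second readings of both genes. The PGK1 3′ control read 16.18, 16.26 and 16.17 in IOSE80 before scaling. It read 17.37, 17.29 and 17.38 in SKOV3 and 12.89, 12.72 and 12.96 in SKOV3-DDP. The PGK1 5′ control read 9.58, 9.44 and 9.48 in IOSE80. It read 11.52, 11.13 and 10.86 in SKOV3 and 6.56, 6.98 and 6.85 in SKOV3-DDP. Both controls thus had the same order of lines as the gene probe before scaling, without overlap. After scaling the differences from IOSE80 to SKOV3 were 1.21 ± 0.08 (SD of the difference) at the 3′ control and 1.74 ± 0.41 at the 5′ control. From SKOV3 to SKOV3-DDP they were -2.01 ± 0.18 and -1.89 ± 0.38, a smaller size than at the gene probe. Between IOSE80 and SKOV3-DDP the 3′ control differed by -0.79 ± 0.19, whereas the 5′ control differed by -0.15 ± 0.22 and its arrays overlapped.

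The GAPDH controls did not read alike in SKOV3-DDP. The 3′ control read 16.49, 16.39 and 16.40 in IOSE80 before scaling. It read 16.55, 16.62 and 16.83 in SKOV3 and 16.44, 16.63 and 16.61 in SKOV3-DDP. Those of SKOV3-DDP overlapped both other lines. The 5′ control read 15.07, 14.98 and 14.96 in IOSE80 and 14.87, 14.83 and 14.92 in SKOV3. In SKOV3-DDP it read 12.27, 12.99 and 12.66, clearly apart from both. The 3′ control minus the 5′ control on the same array was therefore 2.49 ± 0.27 higher in SKOV3-DDP than in IOSE80 and 2.13 ± 0.29 higher than in SKOV3, without overlap, and subtracting a constant from an array leaves this quantity unchanged. In SKOV3 it was 0.36 ± 0.12 higher than in IOSE80. The same quantity for PGK1 went the other way, with -0.52 ± 0.35 in SKOV3 and -0.64 ± 0.32 in SKOV3-DDP relative to IOSE80, and the arrays of SKOV3 and SKOV3-DDP overlapped.

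Read at matching ends, PGK1 minus GAPDH kept its sign in each comparison but not its size. With the 3′ controls the change was 0.90 ± 0.17 from IOSE80 to SKOV3, -3.48 ± 0.21 from IOSE80 to SKOV3-DDP, and -4.39 ± 0.23 from SKOV3 to SKOV3-DDP. With the 5′ controls the changes were 1.79 ± 0.36, -0.35 ± 0.16 and -2.14 ± 0.39. The lines did not overlap in any of these 6 readings. The size between IOSE80 and SKOV3-DDP thus ranged from 1.27-fold at the 5′ controls to 14.4-fold at the gene probes.

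**Figure D4:**
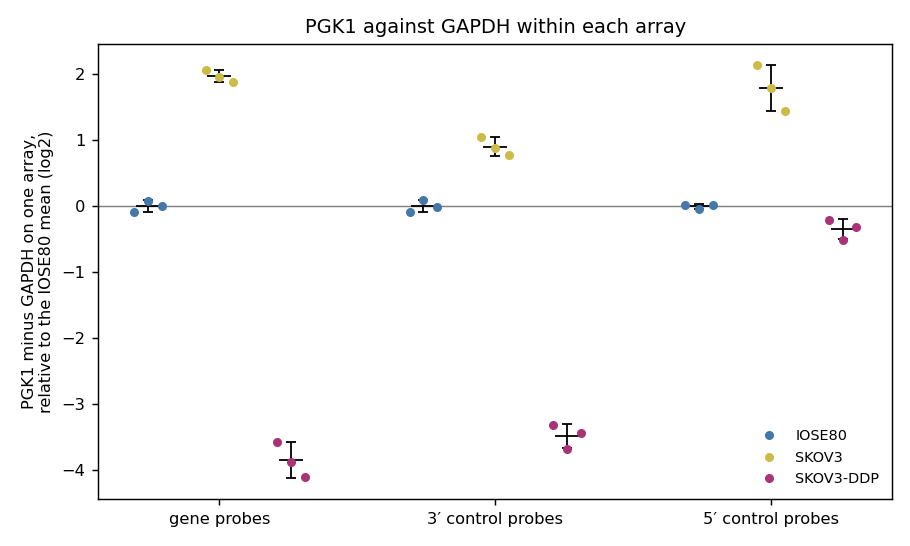
PGK1 minus GAPDH on each array in log2 units, relative to the IOSE80 mean, for the gene probes and the 3′ and 5′ control probes. Points are arrays and bars give the mean and SD. SKOV3 lay above IOSE80 and SKOV3-DDP below it for each pair, by 3.85 at the gene probes and 0.35 at the 5′ controls.

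Several control probes named for mouse and rat PGK1 and GAPDH were brightest on the SKOV3-DDP arrays. The mouse-named GAPDH 5′ control was well above background on no IOSE80 array, on 1 SKOV3 array and on all SKOV3-DDP arrays. Its log2 intensity averaged 15.72 ± 0.35 (SD, n = 3) in SKOV3-DDP, at least 1595-fold above IOSE80 and at least 1633-fold above SKOV3. These bounds set each array that did not measure the probe at the lowest signal of a probe well above background there. The rat-named PGK1 3′ control averaged 14.65 ± 0.21 in SKOV3-DDP, at least 685-fold above IOSE80, where 1 array measured it, and at least 761-fold above SKOV3, where none did. The mouse-named PGK1 3′ control averaged 9.67 ± 0.26 for IOSE80, 11.81 ± 0.11 for SKOV3 and 14.39 ± 0.24 for SKOV3-DDP. On the same arrays the human-named PGK1 3′ control moved the opposite way between SKOV3 and SKOV3-DDP, so that the mouse-named minus the human-named reading was 7.08 ± 0.34 (log2) higher in SKOV3-DDP. Other rodent-named controls did not follow this order before scaling. The rat-named GAPDH 3′ control averaged between 4.80 and 5.06 in every line and was detected on 3 of the 9 arrays, and the mouse- and rat-named PGK1 5′ controls were highest in SKOV3 before scaling. After scaling, all 3 of these controls averaged highest in SKOV3-DDP, by 2.23, 0.92 and 0.54 over SKOV3, and the rat-named PGK1 5′ arrays of these lines overlapped. Within arrays, the mouse-named minus the human-named PGK1 5′ reading was 2.80 ± 0.14 (log2) higher in SKOV3-DDP than in SKOV3. Whether these probes and the PGK1 and GAPDH gene probes read the same transcripts was not tested.

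**Figure D5:**
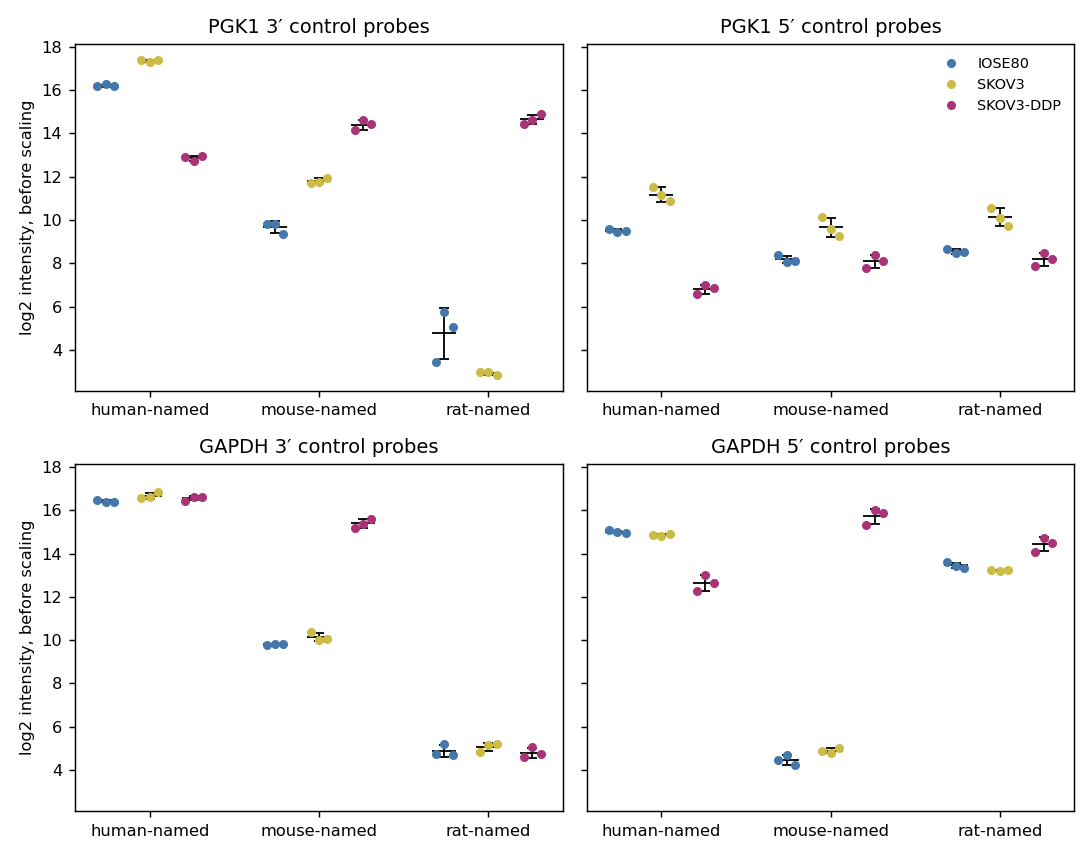
Log2 intensity before scaling of the human-, mouse- and rat-named control probes of PGK1 and GAPDH, with 3 arrays per line and bars for the mean and SD. The mouse-named GAPDH and PGK1 3′ controls, the mouse-named GAPDH 5′ control, the rat-named PGK1 3′ control and the rat-named GAPDH 5′ control were brightest in SKOV3-DDP. The human-named PGK1 controls and the human-named GAPDH 5′ control were dimmest there.

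Within scans, SKOV3 allowed a partial check. In scan 1, the 2 SKOV3 arrays were 2.22 higher than the 3 IOSE80 arrays for PGK1 and 0.21 higher for GAPDH after scaling (log2). In scan 2, the 3 SKOV3-DDP arrays differed from the 1 SKOV3 array by -3.95 for PGK1 and by 1.79 for GAPDH, the latter being -0.77 without scaling. With the scan as a block in the fit, the difference of SKOV3-DDP from IOSE80 was -1.72 ± 0.24 (SE) for PGK1 and 1.99 ± 0.24 for GAPDH under the same scaling.

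Among the 19 named genes that passed the filter, PGK1 had the highest difference in SKOV3 versus IOSE80 and the lowest in SKOV3-DDP versus SKOV3, except with normexp, where it ranked 18th of 19. In SKOV3-DDP versus IOSE80 it ranked 14th from the top under the scaling used here, and GAPDH then ranked 5th or 6th in each comparison. The named genes had a median difference of 0.05, -0.77 and -0.85 in the 3 comparisons, so GAPDH lay above their median in each under the scaling used here. By the same rule 2 were called higher and 2 lower in SKOV3 versus IOSE80, 6 and 8 in SKOV3-DDP versus IOSE80, and 6 and 9 in SKOV3-DDP versus SKOV3. Of all tested probes, 33.5%, 82.0% and 81.0% were called in these comparisons, with more higher than lower in both that involve SKOV3-DDP. The SKOV3-DDP splits of the named genes turned on the scaling, with 1 higher and 11 lower versus IOSE80 after quantile normalization and 2 and 12 versus SKOV3. Without scaling they were 0 and 13 in both comparisons.

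The profile nearest to GAPDH over the 9 arrays was that of ACTB, cytoplasmic actin, the reference for quantitative PCR in this study. Their centered log2 levels differed by a root mean square of 0.13. ACTB differed by 0.06 ± 0.12 (SE, log2) in SKOV3 versus IOSE80, and by 2.01 ± 0.12 in SKOV3-DDP versus IOSE80, which became 0.10 after quantile normalization and -0.54 without scaling. RPLP1, a protein of the ribosomal stalk, followed at 0.18, and H3-3A, a replication-independent histone variant, at 0.28. These 3 genes were also the nearest after quantile normalization. GAPDH lay closer to its nearest genes than PGK1 did. The measure is not corrected for the size of a gene's differences.

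The nearest profiles to PGK1 were more distant. ODC1, the rate-limiting enzyme of polyamine synthesis, differed from it by a root mean square of 0.66, and like PGK1 it was higher in SKOV3 than in IOSE80, by 1.62 ± 0.15 (SE, log2). ODC1 fell by 2.36 ± 0.15 from SKOV3 to SKOV3-DDP, a smaller size than that of PGK1. DYNLL1, a dynein light chain, followed at 0.85, and COX4I1, a subunit of cytochrome c oxidase, at 0.92. Unlike PGK1, these last genes were not called in SKOV3 versus IOSE80, where they differed by 0.54 ± 0.23 and 0.02 ± 0.23 (SE, log2). After quantile normalization the same 3 genes were nearest, in the order DYNLL1, COX4I1 and ODC1.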

How the data were processed

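The authors deposited, for each array, the intensity of every spot as written by Feature Extraction 11.0.1.1 per the file headers (the submitters' processing notes give 10.7.3.1), and a table of processed log2 values that have the same distribution in every column (median 3.70). How that table was normalized is not given in the sources used here. The sample records describe labeling with random primers and the paper's methods a low-input QuickAmp kit, which can differ in how evenly they cover the 3′ and 5′ ends, and which was used is not settled here. From the processed intensity, log2 values were averaged over the spots of a probe without non-uniform spots and, for probes with 10 spots, without population outliers. They were scaled to each array's 75th percentile, as the report describes. Probes detected on 3 or more arrays were fitted with limma 3.58.1 in R 4.3.3, cell line as the factor, all 9 arrays in one model. The number of arrays limits the precision. The test was also run on simulated data, with means and spreads taken from these arrays. The 20 named probes were matched to symbols through a RefSeq table of another genome build, so no coordinates are given. Figures were drawn with Python 3.11.15 and matplotlib 3.10.9.

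Genes outside the members were named by rule: the 3 named genes with the nearest profile to each member, every gene of the glycolysis list with a named probe, and ACTB. The members and lists were chosen with earlier results of these data known. The alternatives were other scalings, normexp background correction, the deposited processed table, other filters and spot summaries, the methods' t-test, the 6 arrays of a comparison, a block for replicate number or scan, and single arrays left out in turn. The fit without scaling was added after the data were seen.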

Additional observations from a re-analysis of the deposited data

Results flagged for a closer look

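Signals outside the comparisons appeared in some of the control probes named for rodent PGK1 and GAPDH, those whose level on every array of a line exceeded that on every IOSE80 array, with a mean difference over 1 (log2). The rat-named GAPDH 3′ probe, whose arrays overlapped those of IOSE80 in both lines before scaling, was not among them. In SKOV3-DDP the log2 intensity before scaling was higher than in IOSE80 by 4.72 at the mouse-named PGK1 3′ probe and by 5.58 at the mouse-named GAPDH 3′ probe. It was higher by at least 10.64 at the mouse-named GAPDH 5′ probe and by at least 9.42 at the rat-named PGK1 3′ probe. In SKOV3 the differences were 2.14 at the mouse-named PGK1 3′ probe, 1.48 at the mouse-named PGK1 5′ probe and 1.58 at the rat-named PGK1 5′ probe. Their part in the PGK1 and GAPDH results was not tested.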

How the results depend on the processing

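PGK1 kept its call and direction under all 14 alternatives other than leaving out an array in SKOV3 versus IOSE80 and in SKOV3-DDP versus SKOV3, where it ranged from -6.44 to -2.43. In SKOV3-DDP versus IOSE80 it lost its call with normexp background correction, at -0.35, and kept it in the other 13. GAPDH in SKOV3-DDP versus IOSE80 lost its call after quantile normalization (0.33) and in the deposited table (0.32), and turned to -0.43 without scaling. Versus SKOV3 it turned to -0.0075, -0.0068 and -0.61 under these settings.

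PGK1 minus GAPDH kept its sign throughout. For SKOV3 against IOSE80, then SKOV3-DDP against IOSE80 and against SKOV3, it was 1.80, -2.86 and -4.67 after quantile normalization and 1.80, -2.86 and -4.66 in the deposited table. Normexp gave -2.37 and -4.21 in the comparisons with SKOV3-DDP.

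The SKOV3-DDP differences of the control probes moved with the scaling. With the percentile over all probes and then before scaling, the PGK1 3′ control gave -1.61 and -3.35 versus IOSE80 and -2.80 and -4.50 versus SKOV3, and the PGK1 5′ control -0.97 and -2.71, and -2.68 and -4.38. The GAPDH 3′ control (2.69 and 2.38 with the scaling used) gave 1.87 and 0.13, and 1.58 and -0.11. The GAPDH 5′ control (0.20 and 0.25) gave -0.62 and -2.36, and -0.54 and -2.24.

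Without a filter on dim probes, 52161 and 51782 probes were called in SKOV3-DDP versus IOSE80 and versus SKOV3. With only probes detected on all 9 arrays, 12577, 12467 and, in SKOV3 versus IOSE80, 3801 were called, since fewer probes were tested. The methods' t-test at the unadjusted threshold gave 9340 calls in SKOV3 versus IOSE80, and in SKOV3-DDP 22980 versus IOSE80 and 22527 versus SKOV3. After Benjamini-Hochberg it gave 9006, 22883 and 22394, in that order.

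Leaving out each array in turn changed no call of PGK1 or GAPDH. In the same order, PGK1 ranged from 2.17 to 2.26, from -1.82 to -1.64 and from -4.04 to -3.86, and GAPDH from 0.16 to 0.33, from 2.03 to 2.20 and from 1.83 to 1.93. PGK1 minus GAPDH ranged from 1.92 to 2.02, from -4.00 to -3.72 and from -5.97 to -5.70, and calls from 9184 to 9888, from 23214 to 23535 and from 22804 to 23197.

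With the replicate number as a block, PGK1 gave 2.22, -1.73 and -3.95, GAPDH 0.25, 2.12 and 1.88, and the calls numbered 9582, 23464 and 23141, with no call of either gene changed. Same-numbered arrays correlated at -0.06 to 0.17 in their deviations, and 4 of 9 arrays correlated best with their own number. They were not treated as pairs in the main fit, although these values cannot show whether they shared handling. The cause of the PGK1 and GAPDH differences was not tested. The low signal of the PGK1 gene probe in SKOV3-DDP limits how closely the fall at that probe is measured. The PGK1 3′ control was brighter there and fell less after scaling, by -0.79 versus IOSE80 and -2.01 versus SKOV3.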
